A study of Forsythia viridissima with 2 samples.

Results

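Among 88491 contigs assembled from flower and leaf RNA of Forsythia viridissima, 237 were both abundant in the flower library and far scarcer in the leaf library. A contig is a transcript sequence that an assembler builds from overlapping reads alone. The members were chosen by their counts in both libraries: each had at least 1000 flower counts and a flower CPM, its count scaled by the library total, of at least 10 times its leaf CPM. A leaf count of 0 was set to 3 before the division. Their direction, the bounds on their counts and ranks in both libraries and the minimum of their ratio follow from this choice and are given as a description, with no test.

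Forsythia viridissima is a shrub of the olive family whose yellow flowers open on bare twigs before the leaves expand, and its genus is known for lignans, a class of secondary metabolites. The study set flower beside leaf in 1 of several Forsythia taxa, with genes of secondary metabolism as its subject. There was 1 flower library and 1 leaf library, from plants 2 years old that grew outdoors with no treatment named, and the labels do not say whether both tissues came from the same plant. The depth was 8279227 counts for flower and 8942023 counts for leaf, so that 1000 counts were 121 CPM in flower and 112 CPM in leaf. With 1 library per tissue there was no spread between replicates, no test and no p-value, and the intervals below are exact 95% intervals that cover counting error only. Fragments sequenced without molecular identifiers are not independent molecules.

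As background, a flower joins several organs that a leaf lacks. Petals make pigment, scent and wax, stamens make pollen and its wall, and the pistil makes ovules and the tissue that pollen tubes grow through. Leaf transcripts are in general dominated by those for photosynthesis. In RNA from a whole tissue, fewer cells of a type and less RNA per cell cannot be told apart. The files pair contigs with no gene names, so no function is given for any contig, and neither tissue label was checked against marker genes. For the same reason 2 contigs are named by ID and the others are told apart by their length and rank.

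The members made up 0.268% of the contigs and held 10.6% of the flower counts (95% interval 10.56 to 10.61%) and 0.319% of the leaf counts (0.316 to 0.323%). That is 876352 counts in flower and 28544 in leaf. Summed over the members, flower CPM was 33.2 times leaf CPM. On TPM, which divides each count by the effective length of the contig before scaling, they held 8.75% in flower and 0.249% in leaf. Of the 1286 contigs with at least 1000 flower counts, the members were 18.4%. The other 1049 took up 28.5% of the flower library and 31.5% of the leaf library.

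**Figure D1:**
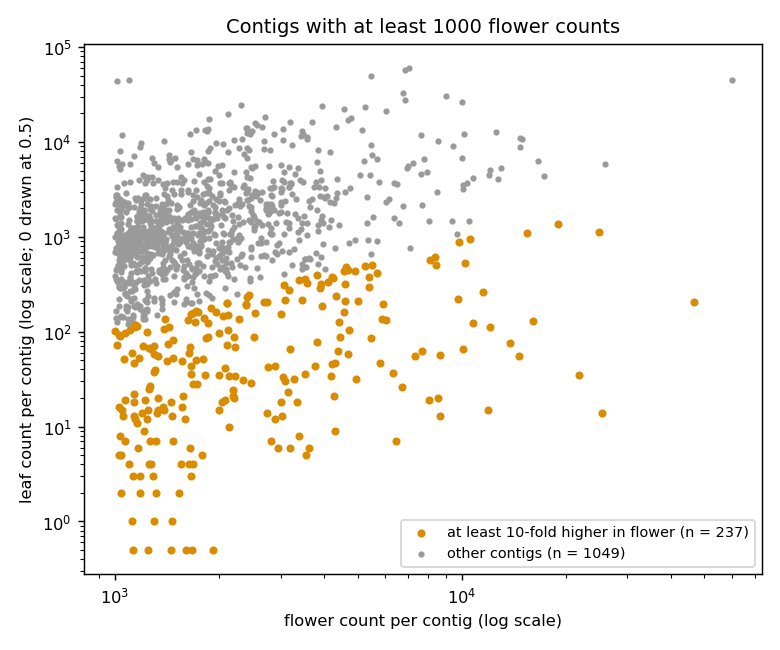
Flower count (x axis) against leaf count (y axis) for each of the 1286 contigs with at least 1000 flower counts, both on log scales, with a leaf count of 0 drawn at 0.5. The 237 members lie below the band of the other 1049 contigs and reach leaf counts of 0 at the bottom, and 1 member has a flower count of 46693.

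The rule also bounds the ranks, since 1286 contigs reached 1000 flower counts, and the ranks are given to place the members in each library. By flower counts, 6 members were among the 10 leading contigs, 24 among the leading 50, 39 among the leading 100 and 205 among the leading 1000. By leaf counts, none was among the leading 500 and 1 was among the leading 1000, at rank 927. Ordered by TPM, 3 members were among the 10 leading flower contigs and 39 among the leading 100, and none was among the leading 1000 in leaf. The median member had rank 438 in flower counts and rank 21063 in leaf counts.

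TR19739|c1_g1_i1, of 1401 bases, was the member with the most flower counts and had the highest TPM of any contig in the flower library. It had 46693 counts in flower and 205 in leaf, and its deposited TPM was 4623.85 in flower and 18.06 in leaf. Its ratio of flower to leaf CPM was 246 (214 to 284). By counts it ranked 2 in flower and 8274 in leaf, and by itself it held 0.564% of the flower library.

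TR23140|c0_g1_i1, of 1084 bases, was next in flower counts and in flower TPM, and it had the highest lower bound of the ratio of all members. It had 25362 counts in flower and 14 in leaf, with a deposited TPM of 3384.02 in flower and 1.66 in leaf. Its ratio was 1957 (1166 to 3579). It ranked 4 by counts in flower and 35141 in leaf. Both named contigs were the only contig under their assembly gene name. This name is the ID without its last number, which is read here as an isoform number from the form of the IDs.

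The 20 members with the most flower counts held 3.76% of the flower library and 35.5% of all member counts in flower. Their deposited TPM in flower ran between 357.88 and 4623.85, and in leaf between 0.64 and 132.16. Of the 20, 4 had ratios of 500 or more, 7 of 100 to 500, 5 of 20 to 100 and 4 of 10 to 20. The most abundant members thus spanned nearly the whole range of ratios.

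At the high end stood a 2605-base contig with 21711 counts in flower and 35 in leaf, a ratio of 670 (482 to 962). A 2067-base contig had 11907 counts in flower and 15 in leaf, a ratio of 857 (520 to 1532). A 2362-base contig had 8652 counts in flower and 13 in leaf, a ratio of 719 (420 to 1351). In leaf these 3 had a TPM of 1.56, 0.86 and 0.64, each resting on 35 counts or fewer. Among the ratios of 100 to 500, a 1018-base contig had a TPM of 2299.87 in flower and 16.74 in leaf, and a 1027-base contig had 2078.57 in flower and 7.08 in leaf. Their ratios by counts were 132 (111 to 158) and 282 (217 to 373).

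At the low end, members still had many leaf counts. A 3295-base contig had 18920 counts in flower and 1371 in leaf, the most leaf counts of any member, and a ratio of 14.9 (14.1 to 15.8). A 2226-base contig had 24855 counts in flower and 1111 in leaf, a ratio of 24.2 (22.8 to 25.7). A 1095-base contig had 15406 counts in flower and 1088 in leaf, a ratio of 15.3 (14.4 to 16.3). These 3 were the only members with 1000 or more leaf counts. An 892-base contig had the highest leaf TPM of any member, at 1658.08 in flower and 132.16 in leaf.

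**Figure D2:**
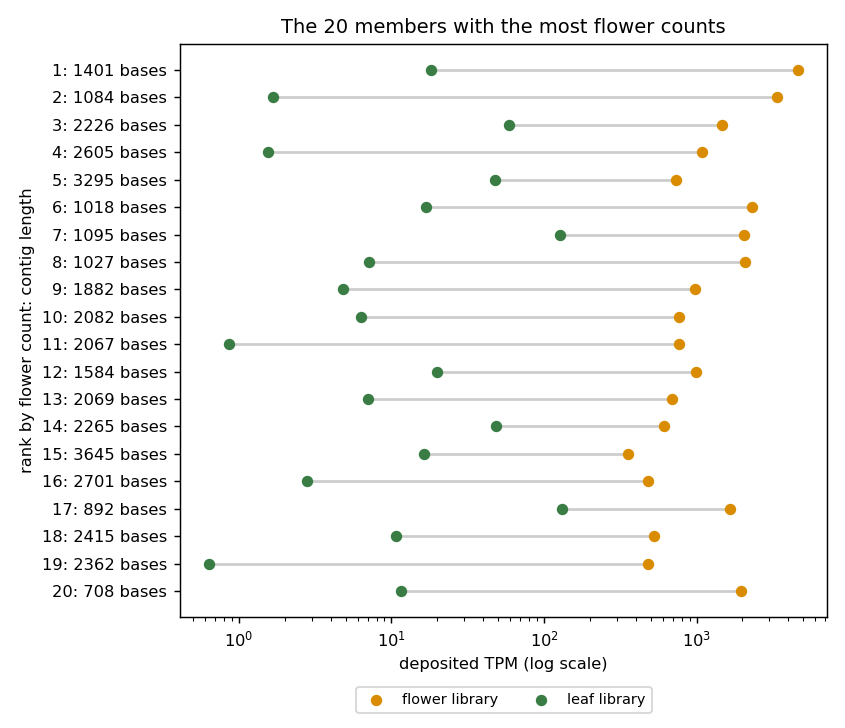
Deposited TPM (x axis, log scale) in the flower and leaf libraries for the 20 members with the most flower counts, in order of that count from the top (y axis, rank and contig length). Flower values lie between 357.88 and 4623.85, while leaf values spread more widely, between 0.64 and 132.16.

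The rule bounds flower counts from below and leaf counts from above, so the spread of each is a description. The middle 50% of members had 1330 to 4215 counts in flower and 15 to 138 in leaf, around medians of 2099 in flower and 52 in leaf. Median TPM was 196 in flower and 4.08 in leaf. In flower, 188 members had a TPM of 100 or more and 17 had 1000 or more. In leaf, 3 had a TPM of 100 or more, 60 had 10 or more, and 56 were below 1.

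The median ratio of the members was 55.9, with quartiles at 16.3 and 165. Ratios of 10 to 20 were found for 69 members, of 20 to 50 for 42, of 50 to 100 for 40, of 100 to 500 for 64 and of 500 or more for 22. The 69 members nearest the threshold held 2.98% of the flower library and 0.223% of the leaf library, which was 69.7% of all member counts in leaf. The 86 members with ratios of 100 or more held 4.62% of the flower library and 0.0193% of the leaf library. They carried 43.6% of the member counts in flower and 6.05% of those in leaf. Median flower TPM was 193 for ratios of 10 to 20 and 246 for ratios of 500 or more, against leaf medians of 13.3 and 0.34.

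Leaf counts were too few to fix the largest ratios. The leaf library had no count for 6 members and 1 to 3 counts for 11. Against the floor of 3 counts, which is 0.335 CPM in leaf, the 6 members at 0 had ratios of 405 to 688. The lower bounds of their intervals ran from 329 to 559, and the intervals have no upper bound. The highest of these 6 members, with 1786 bases, reached 1911 flower counts, and the lowest, with 1017 bases, reached 1124. Contigs with a single leaf count come out above those with none, because only a count of 0 is set to 3. One such contig, with 783 bases, showed 1463 flower counts and 1 leaf count, a ratio of 1580 whose interval ran from 283 to 62454. The order among ratios of this size is therefore not resolved. A contig with 1000 flower counts could reach a ratio of at most 360 against the floor.

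At the threshold of 10 the call was also within counting error for some members. The lower bound of the interval was at least 10 for 214 members and below 10 for 23. Just inside lay contigs with ratios of 10.35 (9.43 to 11.40), 10.36 (9.34 to 11.52) and 10.45 (9.36 to 11.70). Just outside lay contigs at 9.99 (9.27 to 10.78), 9.89 (8.21 to 11.998) and 9.82 (9.22 to 10.47). The members nearest the count minimum had 1002, 1015 and 1026 flower counts and ratios of 10.6, 15.0 and 222. Contigs with 989, 982 and 977 flower counts and ratios of 20.5, 530 and 21.5 fell just short of it.

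The tiers of flower count below are cut on a value that the rule used and that enters the ratio, so the shares are a description. Between 1000 and 2000 flower counts, 113 of 813 contigs were members (13.9%), and between 2000 and 5000 counts 83 of 368 were (22.6%). Between 5000 and 10000 counts the share was 25 of 69 (36.2%), and at 10000 or more it was 16 of 36 (44.4%). The same tiers of leaf counts, with contigs at least 10-fold higher in leaf, gave 58 of 824 (7.04%), 50 of 401 (12.5%), 11 of 92 (11.96%) and 4 of 57 (7.02%). The leaf tiers are cut in the same way on leaf counts, and the 2 sets of shares were not tested against each other. The median ratio of the members was 66.7, 49.4, 47.5 and 124 from the lowest to the highest flower tier. Ratios of 100 or more were found for 37.2%, 30.1%, 40% and 56.3% of the members in these tiers.

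**Figure D3:**
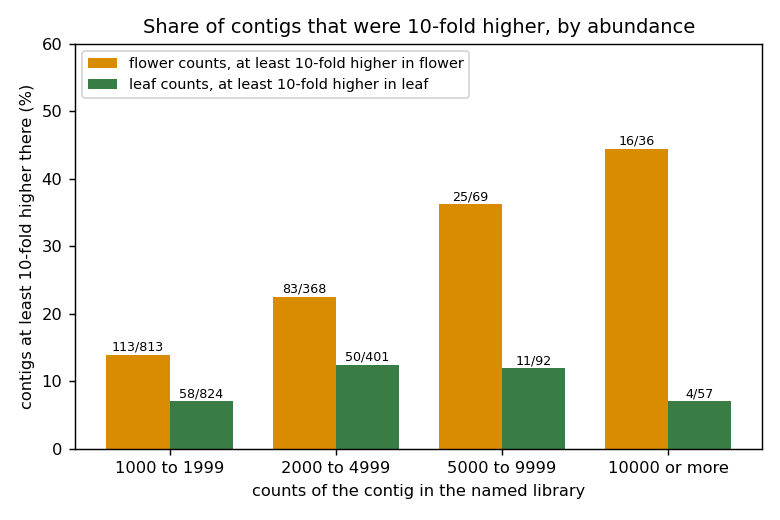
Share of contigs that were at least 10-fold higher in the named library (y axis, percent), by their count in that library (x axis), with the number of contigs above each bar. The flower bars lie between 13.9% and 44.4% and the leaf bars between 7.02% and 12.5%.

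Contigs of the opposite pattern were fewer and less extreme. With at least 1000 leaf counts, those 10-fold or more higher in leaf numbered 123 of 1374 contigs (8.95%), against 237 of 1286 (18.4%) in flower. At 20-fold the numbers were 168 (13.1%) in flower and 62 (4.51%) in leaf, and at 50-fold 126 (9.8%) in flower and 23 (1.67%) in leaf. At 100-fold they were 86 (6.69%) in flower and 15 (1.09%) in leaf, and at 500-fold 22 (1.71%) in flower and 2 (0.146%) in leaf. The numbers at 500-fold rest on few counts in the other library. The 22 members had a median of 2.5 leaf counts, and 4 of them had none and were set against the floor. The 2 contigs in leaf had 3 and 4 flower counts. The members held 10.6% of their own library and the leaf contigs 4.70% of theirs. The median ratio in the contig's own direction was 55.9 for the members and 20.1 for the leaf contigs. These numbers describe a single pair of libraries, and the leaf library was the deeper one.

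Contig length was not part of the rule. Member lengths ran between 270 and 6290 bases, around a median of 1630 and quartiles of 1212 and 2093. The other contigs with at least 1000 flower counts had a median of 1967 bases, with quartiles at 1361 and 2811 and a longest contig of 15810. The contigs higher in leaf had a median of 1347 bases. Lengths of 3000 bases or more were found for 8.02% of members and 21.4% of the other abundant flower contigs.

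Taken by length, the share of members among contigs with at least 1000 flower counts was 43 of 169 (25.4%) under 1000 bases and 58 of 255 (22.7%) between 1000 and 1500 bases. It was 61 of 274 (22.3%) between 1500 and 2000 bases, 56 of 345 (16.2%) between 2000 and 3000, and 19 of 243 (7.82%) at 3000 bases or more. The contigs higher in leaf showed the same order, with shares of 13.7%, 12.7%, 7.64%, 5.96% and 2.99%. Lower shares at greater length were thus found in both directions. A fixed count minimum asks a higher TPM of a short contig than of a long one, and the part of this in the order was not tested.

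**Figure D4:**
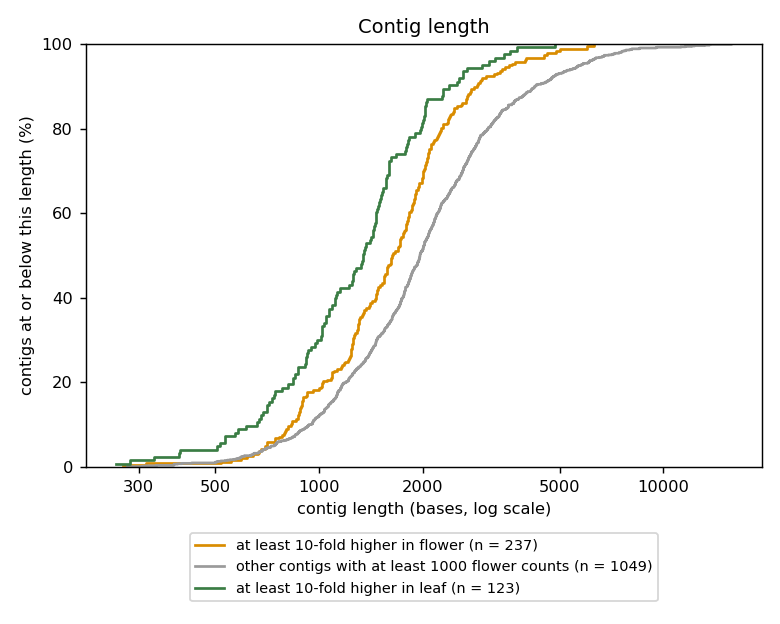
Cumulative share of contigs (y axis, percent) by contig length (x axis, log scale) for the 237 members, the other 1049 contigs with at least 1000 flower counts and the 123 contigs at least 10-fold higher in leaf. The curve of the members, with a median of 1630 bases, lies between that of the leaf contigs (1347 bases) and that of the other flower contigs (1967 bases).

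The shortest member, with 270 bases, showed 1297 flower counts and 70 leaf counts, a ratio of 20.01 (15.7 to 25.8). Its TPM was 1571.08 in flower and 73.31 in leaf. The longest, with 6290 bases, showed 4621 flower counts and 482 leaf counts, and a TPM of 91.95 in flower and 8.55 in leaf. The longest contig thus had more counts in flower but a far lower level per length there. Among 181 members with a leaf TPM of 1 or more, the ratio of flower to leaf TPM was 1.04 to 1.07 times the ratio of flower to leaf CPM.

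The 237 members fell under 218 assembly gene names. For 185 of them the member was the only contig under its name, which is 78.1% of members, against 71.5% of the other contigs with at least 1000 flower counts. A further 13 names held 2 to 4 members each, 32 members in all. Contigs under one name can share sequence and reads, so the members are not 237 independent loci.

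Between members under one name, which by the rule all lie at 10 or above, the highest ratio was 1.16 to 3.24 times the lowest, with a median of 1.39. In 11 of the 13 names all counting intervals of the members overlapped, many of them wide because leaf counts were few. The most abundant of these names held 3 contigs of 1643, 1869 and 1997 bases, with 4459, 4403 and 4429 counts in flower and 88, 62 and 127 in leaf. Their ratios were 54.7 (44.3 to 68.4), 76.7 (59.7 to 100.2) and 37.7 (31.6 to 45.3), and it was 1 of the 2 names whose intervals did not all overlap. The other was a name with 4 members of 664 to 963 bases and ratios between 87.0 and 185, in which 185 (134 to 262) and 94.9 (70.3 to 131) lay apart. A further name held 4 members of 4513 to 6006 bases, with ratios between 92.1 and 119.

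Other contigs under the members' names leaned to flower too, but less uniformly. There were 30 of them under 21 names, and 29 had at least 20 counts in a library. Of the 29, 14 were at least 10-fold higher in flower (48.3%), each with under 1000 flower counts, so that they missed only the count minimum. Some of the 14 shared a name. Lower bounds of the interval were under 10 for those with 441, 29 and 27 flower counts, at 8.79, 7.96 and 4.81. The contig at 7.96 had a leaf count of 0 and took its ratio of 10.4 from the floor. The background for the 48.3% was 6.22% of 36828 contigs with at least 20 counts in a library. The 29, with a median of 520 flower counts, were not matched to that background on abundance. They can also share reads with the members, which were chosen as higher in flower. How 48.3% would compare with a matched background was therefore not tested. A further 10 of the 29 had ratios of 1 to 10, and 5 had more CPM in leaf than in flower. None was 4-fold or more higher in leaf.

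In a few names the member and another contig went separate ways. A member of 1946 bases showed 1253 flower counts and 68 leaf counts, a ratio of 19.9 (15.6 to 25.8). The other contig of that name, with 4611 bases, showed 6040 flower counts and 21092 leaf counts, a ratio of 0.309 (0.301 to 0.318). A member of 816 bases showed 4941 flower counts and 32 leaf counts, a ratio of 167 (118 to 244), beside a contig of 602 bases with 371 in flower and 496 in leaf, a ratio of 0.808 (0.704 to 0.926). A member of 1224 bases showed 2190 flower counts and 24 leaf counts, a ratio of 98.6 (66.1 to 154). The contigs of 1218 and 1254 bases under its name had ratios of 1.79 (1.61 to 2.00) and 0.847 (0.785 to 0.913). The sources used here do not give how reads were divided between such contigs.

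With counts summed over each name, 212 of the 218 names kept a ratio of 10 or more and 6 fell below it, 1 of them below 1. The name below 1 was that of the 1946-base member, whose summed counts were 7293 in flower and 21160 in leaf.

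**Figure D5:**
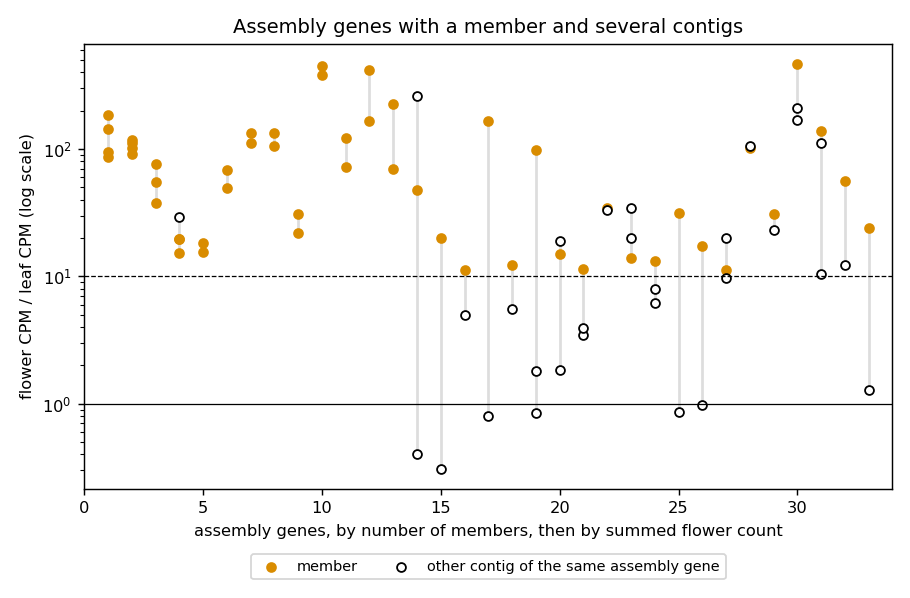
Ratio of flower to leaf CPM (y axis, log scale) of each contig in the 33 assembly genes that held a member and more than 1 contig (x axis, ordered by number of members and then by summed flower count). Filled points are members, open points other contigs of the same name, the dashed line marks a ratio of 10 and the solid line equal CPM. By the rule no filled point lies below the dashed line, and the open points run between 0.309 and 262.

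A wider grouping of the IDs is the number after TR, taken here as a read cluster that holds contigs under one or more gene names. Clusters and gene names were both read from the form of the IDs. The assembler is not given, and each RSEM gene held 1 contig. The members came from 212 clusters, and 6 clusters held members under more than 1 gene name. Under other gene names of the same clusters lay 227 contigs, of which 157 had at least 20 counts in a library. At a ratio of 10 or more were 37 of the 157 (23.6%), against 6.22% of all contigs with that many counts. The 157, with a median of 69 flower counts, were not matched to that background on abundance. Many of them shared a cluster or a gene name, so a few clusters weigh heavily in their share and median. In the other direction 13 of the 157 were at least 10-fold higher in leaf, which is also a larger share than the background of 3.73%. These 13 came from only a few clusters, and some lay under one gene name, so they are not independent cases. The median ratio of the 157 was 1.94, compared with 1.08 over all 36828 contigs. One such neighbour, with 2028 bases, showed 342 flower counts and 11241 leaf counts, so that sharing a cluster did not mean sharing a pattern.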

How the data were processed

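RNA-seq of flower and leaf (1 library each) was used, with groups taken from the labelled tissue. Per the submitters' processing notes, the authors used Trimmomatic and RSEM. The sources used here do not give the assembler, the aligner or any version. The deposited RSEM expected counts are not normalized, and all were whole, so rounding changed none. How reads that match several contigs were assigned is not known, and the counting intervals do not cover it. The file headers name the authors' TPM and FPKM, which by their usual definition are counts scaled by effective length and library. The FPKM in the deposited table of both tissues differed from the library tables for 0 values. The authors' IsoPct, a percent, was not informative, since each RSEM gene held 1 contig. No per-sample column was left without a sample.

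CPM was computed from library totals, with a leaf count of 0 set to 3. For a ratio the 95% interval is the exact conditional one (Clopper-Pearson), and for a share of counts the exact binomial one. The floor of 3 counts is 0.362 CPM in flower and 0.335 CPM in leaf, and it is not a bound of these intervals. Counts of at least 20 in a library were asked of contigs compared with members. No test was made, since each tissue had 1 library. The code for the rule and intervals was run on simulated counts that held counting error only. The simulation had no spread between plants and no reads shared between contigs, so it cannot show how either would change the calls. Alternatives were TMM factors (edgeR 4.0.16), DESeq2 1.42.0 size factors, deposited TPM, another floor, other thresholds and summed assembly genes. Python 3.11.15, numpy 2.4.6, pandas 2.3.3, scipy 1.17.1 and R 4.3.3 were used.

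Contigs were printed by ID when they had the most flower counts among the members or, of the rest, the highest deposited flower FPKM. The others described were the 20 with the most flower counts, those highest by ratio or TPM, those at 0 in leaf, the shortest and longest, and those nearest each threshold. The 2 to 4-member names, the diverging contigs and the neighbours described were chosen after their values were seen. The members and all comparisons were chosen with earlier results of these data known.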

Additional observations from a re-analysis of the deposited data

How the results depend on the processing

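The 237 members, their 218 assembly genes and the 29 other contigs with at least 20 counts under those genes stayed within 1.5 times under each of the 3 other scalings (TMM, DESeq2 size factors, deposited TPM), a floor of 1 count and the lower bound of the interval. TMM kept 233 members and added none, and DESeq2 size factors, which were 1 in both libraries, kept 228. Deposited TPM kept all 237 and added 7. A floor of 1 count changed none of these values. The share of flower counts was 10.4% with TMM, 10.3% with DESeq2 size factors, 10.9% with TPM, 10.03% with the lower bound of the interval at 10 and 10.9% at the assembly gene level. In the same order the share of leaf counts was 0.301%, 0.291%, 0.348%, 0.268% and 0.341%, and the median ratio 58.2, 62.3, 56.5, 71.4 and 53.8. Each median is over the set that passed under its own setting. TMM and DESeq2 size factors lowered the ratio of every single contig with leaf counts. Their medians were higher only because 4 and 9 members dropped out. Median length was 1636.5 bases with TPM, 1621.5 with the lower bound and 1703.5 at the assembly gene level, where it is that of the longest contig. Moving the thresholds changed the set itself. A flower minimum of 500 gave 438 members in 407 assembly genes, 12.3% of flower and 0.378% of leaf counts, a median ratio of 48.4, a median length of 1574.5 bases and 83 other contigs. A minimum of 2000 gave 124 in 114, 8.69% and 0.262%, 51.2, 1668.5 bases and 19. A minimum of 20 gave 2291 in 1957, 15.0% and 0.468%, 24.8, 1019 bases and 298. A ratio of 5 gave 347 members, 13.7% and 0.768%, 18.2, 1782 bases and 66, and a ratio of 20 gave 168 members, 7.60% and 0.0967%, 102, 1576 bases and 15. The settings for the other contigs were chosen after seeing the data. Summed counts passed the rule for 228 assembly genes, of which 212 held a member and 16 did not. Ratios of the named contigs stayed within their counting intervals under each scaling, at 228 to 256 and 1812 to 2039. Depth in leaf limits every ratio of members with few leaf counts. No paired analysis was possible because a single library stood for each tissue.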
